A study of Mus musculus with 8 samples.

Results

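The MHC class II genes examined here are Cd74, H2-Aa, H2-Ab1, H2-Eb1, H2-DMa and H2-DMb1, chosen by name. All 6 were present among the 13439 genes listed for mouse left ventricle. No threshold on a value was applied to choose them, but they were put together with their levels in all 8 libraries known, so their levels and differences are a description. Counts of members past a threshold stand beside the share of all genes past it, and nothing is read from those counts. The libraries form 4 groups of 2. Lin28afl/fl mice, called floxed here, carry a Lin28a gene flanked by recombination sites and left intact, and Lin28aCko mice, called cKO here, lack Lin28a in heart muscle. The Lin28a protein binds RNA and keeps let-7 microRNA precursors from being processed. Lin28a itself was not analysed here, so the deletion was not checked. Mice of each genotype underwent sham surgery or transverse aortic constriction (TAC), in which narrowing of the aortic arch makes the left ventricle pump against a higher pressure. Hearts with TAC were collected at day 5. The sources used here give no day for the sham hearts, no promoter for the recombinase, and no age, sex or strain. The labels do not state whether the 2 libraries of a group came from separate animals. Sex-linked transcripts, given below, show that the 2 cKO sham libraries did not come from the same animal. For the other groups this is not known, so a p-value here reflects only how these samples vary, which may be technical.

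MHC class II molecules present peptides from engulfed material to CD4+ T cells. An alpha and a beta chain pair in the endoplasmic reticulum and bind the invariant chain, encoded by Cd74, which blocks the groove and guides the complex to endosomes. There cathepsin S and other proteases digest the invariant chain down to a fragment called CLIP, and the DM heterodimer exchanges CLIP for peptide. The genes are switched on together by the coactivator CIITA, which binds no DNA itself but docks on factors bound to the X and Y boxes upstream of each gene. In the heart these genes are known mainly from resident and recruited macrophages and dendritic cells, while heart muscle cells carry little.

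H2-DMa (chromosome 17, 34119693 to 34139101), H2-DMb1 (34153191 to 34160229), H2-Ab1 (34263227 to 34269418), H2-Aa (34282744 to 34287823) and H2-Eb1 (34305867 to 34316674) lie within 197 kb of chromosome 17 in RefSeq's GRCm38.p6 annotation. RefSeq promoter windows, from 250 bases before to 50 after a transcription start, were matched for H2-Aa, H2-Eb1, H2-DMa and H2-DMb1. They were searched on both strands for CTNGNAAC, the core of the X box, and for ATTGG, the Y box, letters chosen after the sequences had been seen. The stretches of 3 promoters are shown because their letters match the X and Y boxes, through which CIITA is known to act. Binding of CIITA or of other factors to them was not measured here. Capitals mark the X core and then the Y box, read 5′ to 3′ along the gene's strand.
H2-Aa, chr17:34287847-34287927, minus strand: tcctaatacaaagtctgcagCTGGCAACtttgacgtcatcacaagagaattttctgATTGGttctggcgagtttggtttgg
H2-Eb1, chr17:34305753-34305832, plus strand: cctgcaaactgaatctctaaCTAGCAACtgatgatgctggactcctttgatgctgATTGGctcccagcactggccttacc
H2-DMb1, chr17:34153074-34153154, plus strand: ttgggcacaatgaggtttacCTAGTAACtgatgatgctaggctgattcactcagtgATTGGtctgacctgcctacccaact

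The X core began 84, 94 and 97 bases before the start of H2-Aa, H2-Eb1 and H2-DMb1, and 28, 27 and 28 bases separated it from the Y box. The X core followed by the Y box within 50 bases on the same strand was found in 0.508% of all 32851 RefSeq promoter windows. Alone, the X core was in 13.2% and the Y box in 37.4% of them. Neither of the 2 windows of H2-DMa held the arrangement. The windows of H2-Ob, a class II gene not listed in these data, and of the transcription factor gene Rfx5 held it. Just downstream of the X core the H2-Aa window also held TGACGTCA, the letters of the X2 box, which 1.79% of all windows hold and which does not overlap the X core or the Y box.

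Whole-series facts that touch these genes are few. Library totals were between 10315902 and 21871572 reads assigned to genes, and the 2 libraries of each group differed by more than sampling noise. Only the cKO sham 2 library held the X-inactivation RNA Xist, at 44.3 CPM, beside 0.173 CPM or less elsewhere, and it had no read of the Y-linked Ddx3y. In floxed sham 2, cKO sham 2 and cKO TAC 2, 3 atrial transcripts summed to 139 to 279 CPM, and in the remaining 5 libraries to 6.27 to 17.1 CPM. Those 3 libraries are left out together where stated. CPM scale the reads of a gene by the total of the library.

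Cd74, the invariant chain and also a surface receptor for the cytokine MIF, stood at 130 and 128 CPM in the floxed sham libraries. It stood at 376 and 455 CPM with TAC in floxed hearts. In cKO hearts it was at 237 and 185 CPM after sham surgery and at 125 and 181 CPM with TAC. The floxed TAC libraries were the highest, and both cKO sham libraries lay above both floxed sham libraries. With TAC, cKO hearts lay below cKO sham hearts and on either side of the floxed sham values.

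H2-Aa, the alpha chain of the I-A molecule, had 50.3 and 43.6 CPM in floxed sham, 159 and 178 CPM in floxed TAC, 96.7 and 73.6 CPM in cKO sham and 44.0 and 79.5 CPM in cKO TAC libraries. H2-Ab1, its beta chain partner, had 35.7 and 36.4 CPM in floxed sham, 110 and 131 CPM in floxed TAC, 68.5 and 57.5 CPM in cKO sham and 33.4 and 52.5 CPM in cKO TAC libraries. H2-Eb1, the beta chain of I-E, had 33.3 and 33.5 CPM in floxed sham, 110 and 135 CPM in floxed TAC, 68.3 and 54.8 CPM in cKO sham and 35.7 and 52.3 CPM in cKO TAC libraries. The 3 chain genes had the same order of groups as Cd74. Only for H2-Aa did the cKO TAC and cKO sham libraries overlap, since cKO TAC 2 lay above cKO sham 2.

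H2-DMa and H2-DMb1 encode the alpha and beta chains of DM, which loads peptide and does not present it. H2-DMa had 5.00 and 4.44 CPM in floxed sham, 22.1 and 18.1 CPM in floxed TAC, 6.11 and 5.71 CPM in cKO sham and 5.79 and 7.49 CPM in cKO TAC libraries. H2-DMb1 had 2.79 and 2.82 CPM in floxed sham, 14.0 and 14.5 CPM in floxed TAC, 4.46 and 4.51 CPM in cKO sham and 5.19 and 4.61 CPM in cKO TAC libraries. Both were highest in floxed TAC hearts, and in cKO hearts neither was lower with TAC than after sham surgery by its group mean. Between 43 and 312 reads per library lay behind H2-DMb1, against 1998 to 9798 for Cd74, so counting error weighs more on the DM genes. H2-DMb2, an adjacent copy closely related to H2-DMb1, had 0.389 to 3.53 CPM, and reads from both copies could have been split between them. Of 5 genes for other class II chains and DO, H2-DMb2 was the 1 listed. It rose by log2 1.21 with TAC in floxed hearts (adjusted p = 0.00829 by limma, and 0.0745 without floxed sham 1 and 0.0927 without floxed TAC 2).

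**Figure D1:**
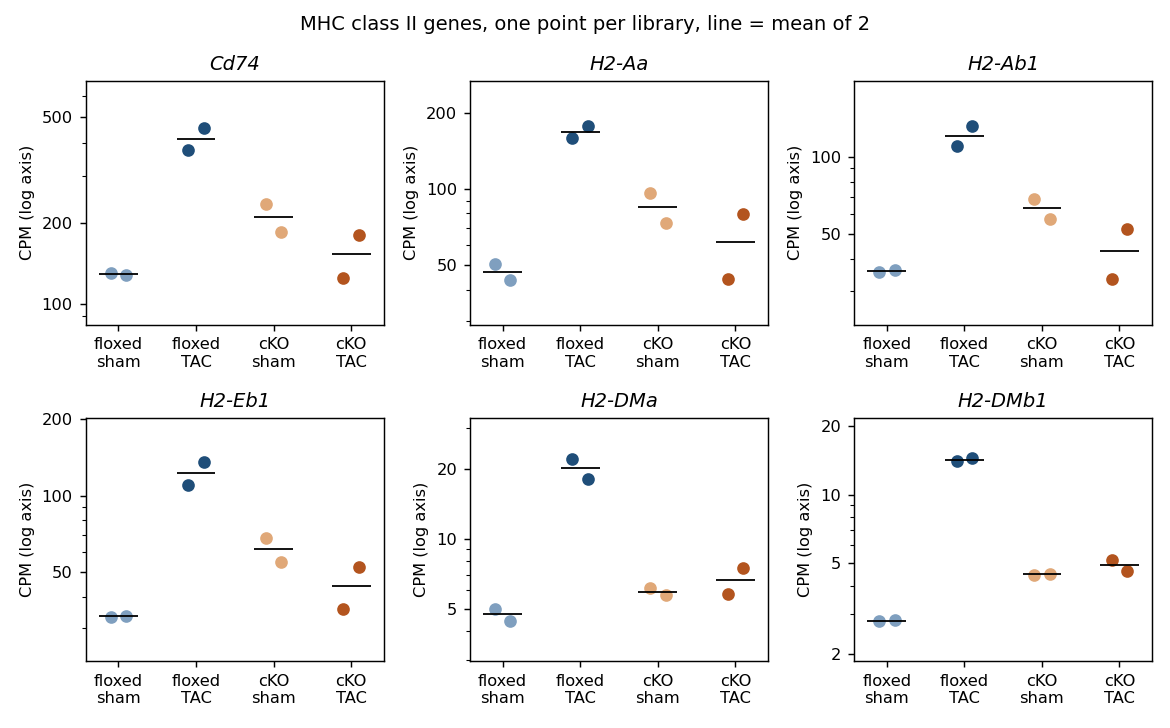
CPM of the 6 class II genes on a log axis in the 4 groups, each library as a point and each group mean as a line. Floxed TAC libraries were highest for all 6 genes, and cKO sham libraries lay above floxed sham libraries in every panel.

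Cd74 lies apart from the other members, on chromosome 18 (60803849 to 60812652 in GRCm38.p6). Per kb of exon in the GENCODE M21 annotation, the order of levels in floxed sham hearts was Cd74, H2-Eb1, H2-Ab1, H2-Aa, H2-DMb1 and H2-DMa. Group means were 76.8 CPM per kb for Cd74, 17.2 for H2-Eb1, 14.0 for H2-Ab1, 12.4 for H2-Aa, 1.67 for H2-DMb1 and 1.37 for H2-DMa. The same order held for the group means of the other 3 groups. The ranges of H2-Ab1 and H2-Aa overlapped in floxed TAC, cKO sham and cKO TAC hearts. Their libraries lay at 43.0 and 51.2 against 42.0 and 46.9 CPM per kb in floxed TAC, at 26.7 and 22.4 against 25.5 and 19.4 in cKO sham and at 13.0 and 20.4 against 11.6 and 20.9 in cKO TAC. The range of H2-Eb1, at 18.4 and 26.9 CPM per kb, also overlapped that of H2-Ab1 in cKO TAC hearts. Compared within each library, H2-Eb1 always lay above H2-Ab1, and H2-Ab1 lay above H2-Aa in all but cKO TAC 2. The sources used here do not name the authors' gene annotation, so these lengths may differ from those behind the counts.

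The floxed TAC group against the floxed sham group gives the response to pressure overload in hearts that keep Lin28a. All 6 genes were higher with TAC. Mean Cd74 went from 129 ± 0.884 to 416 ± 55.9 CPM (SD, n = 2), H2-Ab1 from 36.1 ± 0.528 to 121 ± 14.9 CPM and H2-DMb1 from 2.81 ± 0.0219 to 14.3 ± 0.324 CPM. On the log2(CPM + 1) scale, which understates the change of low genes, the differences ran from 1.67 ± 0.18 (standard error of the fit) for Cd74 to 2.0 ± 0.19 for H2-DMb1. H2-Ab1, H2-Aa, H2-Eb1 and H2-DMa were at 1.71, 1.82, 1.83 and 1.88. The members' median was 1.83, beside 0.14 for all 13120 genes tested. All 6 were higher at an adjusted p under 0.05, beside 27.9% of all genes, while 14.5% of all genes were lower. Both TAC libraries lay above both sham libraries for all 6, beside 46.7% of all genes. Nothing is read from that count, since the levels were known when the genes were put together.

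The same contrast in cKO hearts gives the response when heart muscle lacks Lin28a. Here Cd74 and the 3 chain genes were lower with TAC by their means, and the DM genes were slightly higher by theirs. Differences were -0.48 ± 0.18 for Cd74, -0.51 ± 0.24 for H2-Aa, -0.57 ± 0.20 for H2-Ab1 and -0.49 ± 0.19 for H2-Eb1. They were 0.14 ± 0.20 for H2-DMa and 0.10 ± 0.19 for H2-DMb1. By limma 0 of 6 passed an adjusted p of 0.05, beside 2.53% of all genes, with 3 of 6 under an unadjusted p of 0.05. By edgeR 0 of 6 passed and 3 of 6 were under the unadjusted p. The libraries did not overlap for 4 of 6, beside 42.8% of all genes in either direction. Of these, Cd74, H2-Ab1 and H2-Eb1 were lower with TAC and H2-DMb1 was higher. These values rest on the cKO TAC libraries, which differed from each other. The members' median was -0.48 with both, -0.15 without cKO TAC 1, -0.30 without cKO sham 1 and -0.75 without cKO TAC 2, where H2-Aa and H2-Ab1 passed by limma. Leaving out the 3 libraries with atrial transcripts gave -0.92.

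cKO against floxed in sham hearts compares the genotypes without pressure overload. All 6 genes had both cKO libraries above both floxed libraries, beside 24.9% of all genes. The differences were 0.70 ± 0.18 for Cd74, 0.84 ± 0.24 for H2-Aa, 0.78 ± 0.20 for H2-Ab1 and 0.85 ± 0.19 for H2-Eb1, or 1.62-fold to 1.81-fold on the log2(CPM + 1) scale. H2-DMb1 was at 0.53 ± 0.19 and H2-DMa at 0.27 ± 0.20. By limma 0 of 6 passed an adjusted p of 0.05, beside 0.0534% of all genes, with 5 of 6 under an unadjusted p of 0.05. By edgeR the counts were likewise 0 and 5. The members' median of 0.74 was 0.89 without cKO sham 2, the library with Xist, and 0.59 without cKO sham 1. Without the 3 libraries with atrial transcripts it was 0.89.

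cKO against floxed in TAC hearts compares the genotypes under pressure overload. The 6 differences were close to each other, from -1.50 ± 0.20 for H2-Ab1 to -1.37 ± 0.19 for H2-DMb1, with a median of -1.47 beside -0.10 for all genes. As group means, Cd74 was at 153 ± 39.1 CPM in cKO against 416 ± 55.9 CPM in floxed hearts, and H2-DMa at 6.64 ± 1.20 against 20.1 ± 2.80 CPM. Each gene was lower at an adjusted p under 0.05, beside 16.5% of all genes, and nothing is read from that count. Of all genes 8.39% were higher. Both cKO libraries lay below both floxed libraries for each of the 6, beside 40.2% of all genes.

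The genotype by surgery interaction subtracts the floxed response to TAC from the cKO response. It was -2.15 ± 0.26 for Cd74, -2.33 ± 0.34 for H2-Aa, -2.28 ± 0.28 for H2-Ab1 and -2.32 ± 0.27 for H2-Eb1, and -1.74 ± 0.28 and -1.90 ± 0.27 for H2-DMa and H2-DMb1. All 6 were lower at an adjusted p under 0.05, beside 9.18% of all genes, while 4.93% were higher, and nothing is read from that count. The genotype comparisons share libraries with the TAC comparisons, so these differences are not separate observations. The median of all genes was 0.14 in the floxed comparison and 0.00 under RLE scaling. Relative to the median of all genes, the members' median was 1.69 as scaled by the authors and 1.68 under RLE in the floxed comparison, and -2.09 and -2.08 in the interaction.

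**Figure D2:**
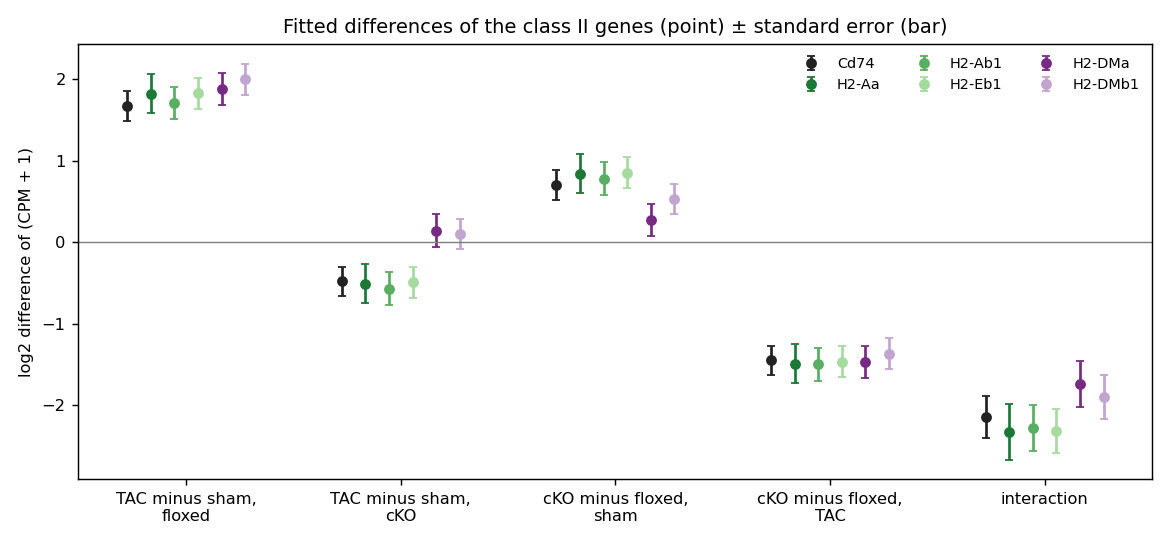
Fitted log2 differences of the 6 class II genes in the 5 comparisons, with bars for the standard error of the fit. The chains and Cd74 lay between -0.57 and -0.48 for TAC minus sham in cKO hearts, where H2-DMa and H2-DMb1 lay at 0.14 and 0.10.

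Within a library the chain transcripts kept nearly fixed proportions. The ratio of H2-Eb1 to H2-Ab1 was between 0.92 and 1.07 in the 8 libraries, and that of H2-Aa to H2-Ab1 between 1.20 and 1.51. Cd74 was at 0.98 to 1.13 times the sum of H2-Aa, H2-Ab1 and H2-Eb1. These ranges held across groups whose summed class II level ran from 249 to 932 CPM. Reads of H2-DMa and H2-DMb1 made up 3.03% (95% Wilson interval 2.54% to 3.61%) and 2.91% (2.44% to 3.47%) of class II reads in floxed sham and 4.56% (4.26% to 4.88%) and 3.50% (3.25% to 3.76%) in floxed TAC libraries. The share was 2.2% (1.82% to 2.64%) and 2.68% (2.29% to 3.13%) in cKO sham and 4.40% (3.84% to 5.04%) and 3.21% (2.81% to 3.67%) in cKO TAC libraries. TAC libraries had the larger share in each genotype. Without molecular identifiers, reads can be copies of 1 molecule, and the intervals hold only counting error.

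Ciita, the coactivator that switches class II genes on, rose with TAC in floxed hearts, but its sham levels did not follow those of the chains. It had 0.843 and 0.600 CPM in floxed sham, 4.39 and 6.78 CPM in floxed TAC, 0.679 and 0.531 CPM in cKO sham and 1.27 and 2.13 CPM in cKO TAC libraries. Floxed TAC libraries were highest, the sham groups overlapped, and the cKO TAC libraries lay above both sham groups. By limma the floxed log2 difference was 1.91 (adjusted p = 0.000486). In cKO hearts it was 0.73 (adjusted p = 0.221), and between the sham groups it was -0.10 (adjusted p = 0.947). With TAC, Ciita was lower in cKO than in floxed hearts by -1.28 (adjusted p = 0.00987), a call lost without floxed TAC 2 (adjusted p = 0.0997) or cKO TAC 1 (adjusted p = 0.0671). The interaction was -1.18 (adjusted p = 0.0716). Behind these values lay 7 to 13 reads per sham library and 23 to 146 per TAC library. The ratio of H2-Ab1 to Ciita was 42.3 and 60.7 in floxed sham, 101.0 and 108.4 in cKO sham, 25.1 and 19.4 in floxed TAC and 26.3 and 24.6 in cKO TAC libraries, and was highest in cKO sham hearts.

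Of 8 class II transcription factors, Ciita included, 2 were higher and 1 lower with TAC in floxed hearts, beside 27.9% and 14.5% of all genes. The other 5 did not pass, and the median was 0.06. Besides Ciita, the RFX subunit gene Rfxank rose by log2 1.02 (adjusted p = 0.00292), and Nfyc, a subunit of the Y box factor NF-Y, fell by 0.33 on the log2 scale (adjusted p = 0.0347). The call of Nfyc was lost without any 1 of the 4 floxed libraries, with adjusted p values of 0.0958 to 0.171. In cKO hearts with TAC 0 of 8 passed by limma, beside 2.53% of all genes, and 0 by edgeR, with 1 under an unadjusted p of 0.05. With TAC, Rfxank was lower in cKO than in floxed hearts by -0.62 (adjusted p = 0.0485), a call lost under 10 alternatives, with adjusted p = 0.301 at most, without floxed TAC 1. Rfx5, Rfxap, Nfya, Nfyb and Creb1 did not pass by limma in any of the 5 comparisons. By edgeR, Rfx5 passed with TAC in floxed hearts (log2 difference -0.81, adjusted p = 0.0418), where limma gave -0.61 (adjusted p = 0.0946).

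Of 8 tested genes that process antigen and invariant chain, 6 were higher with TAC in floxed hearts and 0 lower, beside 27.9% and 14.5% of all genes. Their median was 1.01. Ctss, the cathepsin that cleaves the last part of the invariant chain, had 15.9 and 15.5 CPM in floxed sham, 254 and 152 CPM in floxed TAC, 19.4 and 12.2 CPM in cKO sham and 33.0 and 60.5 CPM in cKO TAC libraries. The sham groups overlapped, and TAC libraries were higher in both genotypes. By limma it rose by log2 3.56 in floxed (adjusted p = 4.32e-05) and by 1.48 in cKO hearts (adjusted p = 0.0449). The cKO call was lost without any 1 of 7 libraries, all but cKO TAC 1 (adjusted p = 0.0540 to 0.190), with the replicate number as a block (adjusted p = 0.0528) and without the 3 libraries with atrial transcripts (adjusted p = 0.383). Ifi30, the thiol reductase that opens disulfide bonds of antigens, had 11.9 and 14.3 CPM in floxed sham, 62.7 and 57.8 CPM in floxed TAC, 14.9 and 16.1 CPM in cKO sham and 19.3 and 21.8 CPM in cKO TAC libraries. It rose by log2 2.12 in floxed hearts (adjusted p = 1.94e-05), and its interaction was -1.73 (adjusted p = 0.00454).

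The endosomal proteases Lgmn (log2 1.39), Ctsb (log2 1.13) and Ctsh (log2 0.88) also rose in floxed hearts, with adjusted p values by limma of 0.000598, 0.000315 and 0.000711. Ctsl rose by log2 0.41 (adjusted p = 0.0281), a call lost under RLE scaling (adjusted p = 0.116), by edgeR (0.101), without floxed sham 1 (0.104), floxed sham 2 (0.134) or floxed TAC 1 (0.191). Ctsd and Sppl2a, the intramembrane protease that clears the last invariant chain stub, did not pass in any comparison. In sham hearts 0 of 8 processing genes differed between genotypes by limma, beside 0.0534% of all genes. By edgeR 0 of 8 passed, and 0 were under an unadjusted p of 0.05, with a median of 0.00. With TAC 5 of 8 were lower in cKO than in floxed hearts and 0 higher, beside 16.5% and 8.39% of all genes.

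Among 5 genes for ligands and co-receptors of Cd74, the cytokine gene Mif rose by log2 0.88 (adjusted p = 0.000330) and its signalling partner Cd44 by 2.69 (adjusted p = 0.000107) in floxed hearts by limma. Ddt, a homologue of Mif, fell by 0.82 on the log2 scale (adjusted p = 0.000966). Cxcr4 and Cxcr2 did not pass. In cKO hearts 0 of 5 passed with TAC by limma, beside 2.53% of all genes, and 0 by edgeR. An unadjusted p under 0.05 was seen for 2. The interaction was -1.93 for Cd44 (adjusted p = 0.0172), a call lost without floxed sham 1 (0.0801), floxed TAC 1 (0.0589) or floxed TAC 2 (0.0593).

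**Figure D3:**
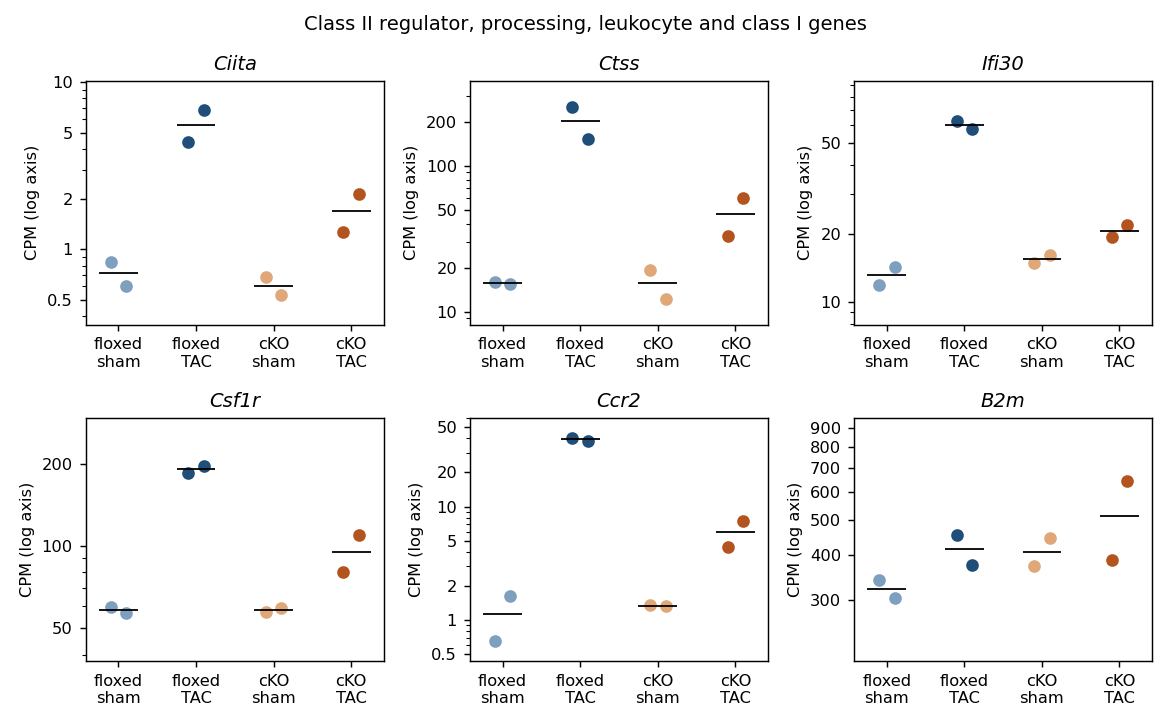
CPM on a log axis of Ciita, Ctss and Ifi30, of the leukocyte genes Csf1r and Ccr2 and of the class I light chain gene B2m, each library as a point and each group mean as a line. The cKO TAC libraries lay above the cKO sham libraries for Ciita, Ctss, Ifi30, Csf1r and Ccr2, unlike Cd74 and the chains.

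Few MHC class I genes passed in any comparison. Class I molecules present cytosolic peptides and are made by nearly all cells. By edgeR 3 of 13 class I presentation genes passed with TAC in floxed hearts, of which Tap2 and Erap1 were lower. By limma 11 did not pass, and the median was 0.30. By limma 2 were higher and 0 lower, beside 27.9% and 14.5% of all genes. The 2 were Nlrc5, the class I counterpart of Ciita (log2 1.14, adjusted p = 0.00585, and 0.0526 without floxed sham 2), and the immunoproteasome subunit gene Psmb10 (log2 0.37, adjusted p = 0.0216, and 0.132 under RLE scaling, 0.107 by edgeR, 0.0944 without floxed sham 1, 0.115 without floxed sham 2 and 0.122 without floxed TAC 1). The light chain gene B2m was at 341 and 305 CPM in floxed sham, 456 and 376 CPM in floxed TAC, 373 and 446 CPM in cKO sham and 388 and 641 CPM in cKO TAC libraries. It passed in none of the 5 comparisons, nor did the heavy chain genes H2-K1 and H2-D1. Of all genes 2.53% passed for TAC in cKO hearts and 0.0534% for genotype in sham hearts. For genotype with TAC 16.5% of all genes were lower and 8.39% higher, and for the interaction 9.18% and 4.93%. In these other 4 comparisons 0 of 13 class I genes passed by limma. At an unadjusted p under 0.05, 0 were seen for TAC in cKO hearts and 1 in each of the other 3, and by edgeR 1 passed between genotypes with TAC and 0 in the rest.

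Genes of the interferon gamma pathway, the main inducer of Ciita outside professional antigen-presenting cells, moved in both directions. Of 10 tested, 3 were higher and 3 lower with TAC in floxed hearts, beside 27.9% and 14.5% of all genes. The other 4 did not pass, and the median was -0.09. Irf8, a factor of myeloid cells, rose by log2 1.67 (adjusted p = 0.000991) and the chemokine gene Cxcl10 by 1.98 (adjusted p = 0.000383) by limma. The interferon targets Gbp2 and Cxcl9 fell by 0.91 and 0.70 on the log2 scale (adjusted p = 0.00219 and 0.0266). The call of Cxcl9 was lost without floxed sham 1 (0.187), floxed TAC 1 (0.128) or floxed TAC 2 (0.0690). Irf1 did not pass by limma in any comparison and passed by edgeR with TAC in floxed hearts (log2 difference -0.48, adjusted p = 0.0435), and Ifng was not analysed here.

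Markers of the cells that usually carry class II were read beside these levels. In a bulk sample, fewer cells of a type and less RNA per cell cannot be told apart. All 11 macrophage and leukocyte markers rose with TAC in floxed hearts, with a median of 2.63 (Mertk, at log2 0.75 and adjusted p = 0.0271 by limma, was lost without floxed sham 2 at 0.182 and floxed TAC 1 at 0.199). Of all genes 27.9% were higher in that comparison. The summed level of the 11 markers was 287 to 304 CPM in floxed sham and 1192 to 1204 CPM in floxed TAC libraries. In cKO hearts 7 of 11 rose, beside 2.53% of all genes called in either direction. The other 4 did not pass and the median was 0.99, with 249 to 288 CPM after sham surgery and 478 to 663 CPM with TAC. None of the 11 was listed at 0 in any library. Between sham groups 0 of 11 passed by limma, beside 0.0534% of all genes, and 0 by edgeR, and 0 were under an unadjusted p of 0.05. Csf1r, the growth factor receptor of macrophages, had 59.9 and 56.6 CPM in floxed sham, 185 and 197 CPM in floxed TAC, 57.1 and 59.3 CPM in cKO sham and 80.3 and 110 CPM in cKO TAC libraries. The part of leukocyte numbers in the class II levels was not tested.

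Each of the 7 cKO calls was lost without the 3 libraries with atrial transcripts, with adjusted p values of 0.0667 for Cd68 and C1qb and 0.291 for Csf1r by limma. Csf1r (log2 0.68, adjusted p = 0.0434) was also lost without either floxed sham library (0.0889 and 0.0887), either floxed TAC library (0.0793 and 0.0790), either cKO sham library (0.156 and 0.144) or cKO TAC 2 (0.127). Cd68, a lysosomal glycoprotein gene of macrophages, rose by log2 1.42 (adjusted p = 0.00866) and the complement gene C1qb by log2 1.33 (adjusted p = 0.00310), and both held without any single library. Of 6 resident macrophage markers 4 rose in floxed hearts, beside 27.9% of all genes, with a median of 0.84. Lyve1 (log2 0.14) and Timd4 (log2 -0.65) did not pass. The call of Folr2 was lost under RLE scaling (adjusted p = 0.0608). Of 4 recruited monocyte markers tested 3 rose in floxed hearts, beside 27.9% of all genes, and Ly6c2 did not pass (log2 -0.04). The monocyte chemokine receptor gene Ccr2 went from 0.649 and 1.62 CPM in floxed sham to 40.5 and 38.1 CPM in floxed TAC libraries. In cKO libraries it was at 1.36 and 1.33 CPM after sham surgery and at 4.41 and 7.49 CPM with TAC.

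The summed class II level, nearly all Cd74 and chains, was set against 2 sets of leukocyte transcripts. Relative to these sets it was highest in cKO sham hearts and lowest in cKO TAC hearts. The summed CPM of the 6 class II genes over the summed CPM of Ptprc, Csf1r and Emr1, the older symbol of Adgre1, was 3.60 and 3.48 in floxed sham and 2.74 and 3.29 in floxed TAC libraries. It was 6.50 and 5.16 in cKO sham and 2.41 and 2.50 in cKO TAC libraries. Ptprc encodes the pan-leukocyte CD45 and Emr1 the macrophage antigen F4/80. The 4 groups did not overlap. With C1qa, C1qb, C1qc and Cd68 below the line the ratio was 1.297 and 1.158 in floxed sham, 1.002 and 1.158 in floxed TAC, 2.439 and 2.373 in cKO sham and 0.716 and 0.817 in cKO TAC libraries. The cKO sham libraries again lay highest and the cKO TAC libraries lowest, and the floxed groups were no longer apart. For H2-DMa and H2-DMb1 alone, over Ptprc, Csf1r and Emr1, the ratio was 0.109 and 0.101 in floxed sham, 0.125 and 0.115 in floxed TAC, 0.143 and 0.138 in cKO sham and 0.106 and 0.080 in cKO TAC libraries. There the floxed TAC libraries lay above the floxed sham libraries, and the cKO TAC libraries overlapped the floxed sham libraries. Csf1r weighs most in the first set, with a floxed sham mean of 58.3 CPM beside 2.51 for Ptprc and 10.6 for Emr1. Between floxed and cKO TAC hearts, mean Csf1r was at 191 and 95.3 CPM and Cd74 at 416 and 153 CPM. Itgam, a leukocyte gene in neither set, was at 58.6 and 13.0 CPM, a larger fold difference than that of Cd74. Between floxed and cKO sham hearts, mean Ptprc was at 2.51 and 3.64 CPM, Emr1 at 10.6 and 12.1 CPM and Csf1r at 58.3 and 58.2 CPM. The means of C1qa, C1qb, C1qc and Cd68 were lower in cKO sham than in floxed sham hearts. The low place of cKO TAC hearts thus depends on the genes below the line. So does the distance of cKO sham hearts above the other groups. No test of these ratios was made.

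**Figure D4:**
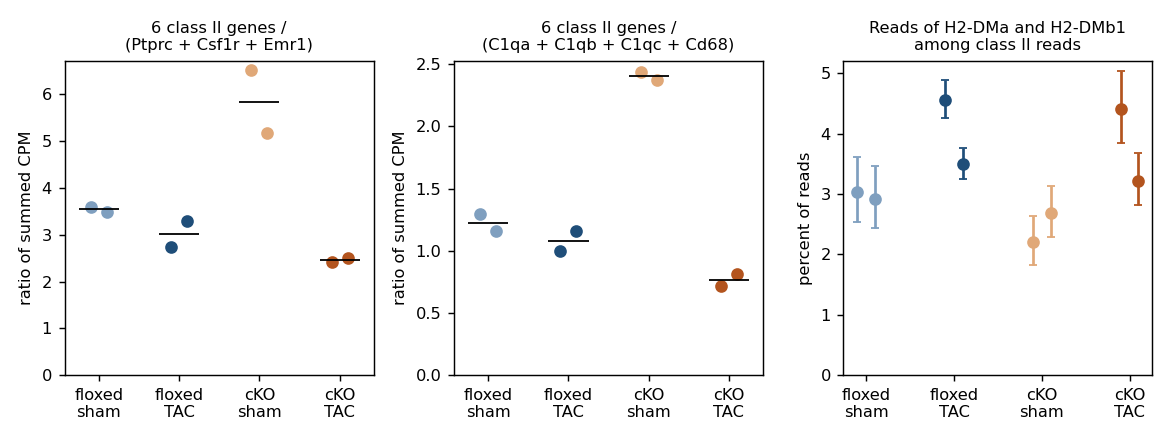
Summed CPM of the 6 class II genes over that of 2 sets of leukocyte genes, and the percent of class II reads from H2-DMa and H2-DMb1, for each library, with group means as lines or 95% Wilson intervals as bars. Over Ptprc, Csf1r and Emr1 the cKO sham libraries sit at 6.50 and 5.16 and all others between 2.41 and 3.60.

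Transcripts of other antigen-presenting cells were scarce. Of 9 dendritic cell markers 6 were listed, with a summed level of 11.6 to 13.1 CPM in floxed sham, 20.9 to 31.0 CPM in floxed TAC, 14.2 to 15.3 CPM in cKO sham and 13.5 to 15.4 CPM in cKO TAC libraries. For the 5 tested, the median log2 difference with TAC in floxed hearts was 0.05. Zbtb46 (0.05), Xcr1 (-0.07) and Clec9a (-0.40) did not pass by limma. The other 2 rose, beside 27.9% of all genes. They were Itgax, the integrin CD11c of dendritic cells and some macrophages (log2 3.20, adjusted p = 0.000227 by limma), and Cd209a (log2 1.20, adjusted p = 0.00705, and 0.0520 without floxed sham 2). Flt3, the growth factor receptor of dendritic cells, was at 0 in floxed sham 2 and cKO sham 1 and at 0.823 and 1.02 CPM in floxed TAC libraries. A count of 0 allows up to 0.180 and 0.291 CPM there. Of 6 B cell markers 2 were listed, Cd79a and Cd79b, summing to 0.386 to 1.69 CPM over the 8 libraries. Of 6 T cell markers 2 were listed, Cd4 and Cd247, summing to 1.62 to 3.85 CPM. The part of these cells in the class II levels was not tested.

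The genes whose profile lay closest to the members' mean were found by the root mean square difference between centred log2(CPM + 1) profiles over the 8 libraries. The 8 closest of 13114 were Manf (0.11), Hps1 (0.14), Anxa5 (0.15), Rras2 (0.16), Pdia4 (0.16), Ifitm10 (0.17), Pdia6 (0.17) and Foxc2 (0.19). This scale understates the change of low genes, so Hps1, Ifitm10 and Foxc2 lie close to the mean partly through the added 1 CPM. Ifitm10 had 0.389 and 0.240 CPM in floxed sham and 4.89 and 4.27 CPM in floxed TAC libraries. Manf, Anxa5, Rras2, Pdia4 and Pdia6 were at 24.8 CPM or more in every library. The members, unlike those 8 genes, enter the mean themselves, which draws them closer to it. They lay at 0.10 for Cd74 and H2-Eb1, 0.12 for H2-Ab1, 0.14 for H2-Aa, 0.22 for H2-DMa and 0.23 for H2-DMb1. Manf, a secreted protein of the endoplasmic reticulum, had 24.8 and 28.0 CPM in floxed sham, 84.6 and 91.5 CPM in floxed TAC, 38.7 and 31.4 CPM in cKO sham and 27.1 and 36.9 CPM in cKO TAC libraries. Anxa5, a calcium-dependent phospholipid-binding protein, had 90.4 and 96.6, 310 and 307, 158 and 128, and 113 and 179 CPM in the same order. H2-DMa and H2-DMb1 were thus farther from the mean than these 8 genes, and none of the 8 was in a marker list.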

How the data were processed

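The deposited values are CPM, made by the authors with 1 column per library. Per the submitters' processing notes Bowtie2 2.2.6, HTSeq and DESeq2 were used with mm10. The sources used here give no gene annotation, counting settings or order of tools. Dividing by the value of 1 read gave whole reads (tolerance 0.02) for 99.98% of genes or more per library, so reads were recovered.

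Of 13439 genes, 13120 that reached 1 CPM in 2 or more libraries entered the tests. limma 3.58.1 with a trended variance was run under R 4.3.3 on log2(CPM + 1), with all 8 libraries and 1 coefficient per group. The plan named this test for CPM and edgeR for counts. Benjamini-Hochberg adjusted p values, over all genes tested, passed under 0.05. edgeR 4.0.16 (quasi-likelihood, TMM) on the recovered reads was an alternative, as were RLE scaling, a pseudocount of 0.25 CPM, no filter, a replicate block and left-out libraries. The script was tested on simulated data.

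The members and the 18 other gene lists were chosen with earlier results of these data known. Every listed gene of the class II and Cd74 ligand lists could be named, and of other lists up to 4 genes past the threshold per comparison by size, plus a set of standard markers. Adgre1 was matched as Emr1 and Chil3 as Chi3l3. A count of 0 allows up to 3 reads, or 0.137 to 0.291 CPM.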

Additional observations from a re-analysis of the deposited data

Results flagged for a closer look

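For Cd74, H2-Ab1 and H2-Eb1 both floxed TAC libraries lay above both floxed sham libraries, while both cKO TAC libraries lay below both cKO sham libraries. Their TAC responses differed between genotypes by -2.15, -2.28 and -2.32 on the log2 scale. The interaction term of limma passed for all 3, and nothing is read from that, since their levels were known when they were put together.

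The TAC response differed between genotypes by the interaction term of limma for 21 of the listed genes, and nothing is read from that count. Of all 13120 genes tested, 9.18% were lower and 4.93% higher in this term. By list, 6 of 11 macrophage and leukocyte markers, 4 of 6 heart muscle markers and 0 of 13 class I genes passed. The genes that passed are named here with their log2 differences. The response was lower in cKO hearts for the processing genes Ctss (-2.09) and Ifi30 (-1.73), for Cd44 (-1.93), for Irf8 (-1.57) and Cxcl10 (-1.38) and for Itgax (-2.14). It was also lower for the leukocyte genes Ptprc (-1.96), Csf1r (-1.01), Emr1 (-1.74), Cd68 (-1.32), Itgam (-1.71), C1qa (-0.86), Mrc1 (-0.97), Ccr2 (-2.74) and Chi3l3 (-2.00). It was higher for Ddt (0.64) and Gbp2 (1.27) and for the heart muscle genes Myh6 (1.75), Tnni3 (0.85), Ryr2 (0.99) and Pln (0.91). Of these 21 calls 19 were lost under at least 1 alternative, the exceptions being Ifi30 and Ccr2.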

How the results depend on the processing

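The members' median differences kept their sign under every alternative. Without the 3 libraries with atrial transcripts they were -0.92 for TAC in cKO hearts, -1.73 for cKO against floxed with TAC and -2.66 for the interaction. Leaving out 1 library gave 1.72 to 1.88 for TAC in floxed hearts, -0.75 to -0.15 for TAC in cKO hearts, 0.59 to 0.89 for genotype in sham hearts, -1.73 to -1.20 for genotype with TAC and -2.50 to -1.94 for the interaction. The extremes of the last 2 came without cKO TAC 2 and without cKO TAC 1.

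The counts of all genes past the threshold were 5562, 332, 7, 3263 and 1851 in that order of comparisons. Leaving out 1 library gave 3618 (floxed sham 1) to 5921, 73 (cKO sham 2) to 614 (cKO TAC 1), 1 (floxed sham 1) to 16 (cKO sham 1), 1330 (floxed TAC 2) to 3624, and 253 (floxed sham 1) to 2918 (cKO TAC 2). Every single library moved the cKO TAC count and the interaction count by over 1.5 times, and the genotype count with TAC was 1526 without floxed TAC 1 and 1398 without cKO TAC 1. With 1 library left in a group, that library is assumed to vary like the others. Without the 3 libraries with atrial transcripts 62 genes passed for TAC in cKO hearts. Under RLE scaling the share of higher genes among calls moved from 65.7% to 53.3% for TAC in floxed hearts, from 33.7% to 44.9% for genotype with TAC and from 35.0% to 48.0% for the interaction. Of the listed genes' calls, 16 of 52 were lost under at least 1 alternative for TAC in floxed hearts, 11 of 11 for TAC in cKO hearts, 15 of 35 for genotype with TAC and 19 of 21 for the interaction.

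With the replicate number as a block, 5573, 309, 8, 3289 and 1873 genes passed. Differences between replicates 1 and 2 correlated between groups by -0.105 to 0.081 over genes. The 3 libraries with atrial transcripts were all replicate 2. The labels do not say what the number stands for.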

Other observations

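Co-stimulatory ligands are needed by T cells beside class II. Of 5 tested, 2 were higher and 1 lower with TAC in floxed hearts, beside 27.9% and 14.5% of all genes. Their median was 0.63. Cd86 rose by log2 1.14 (adjusted p = 0.00382 by limma) and Cd80 by log2 1.29 (adjusted p = 0.00716, and 0.0691 without floxed TAC 2 and 0.0509 without floxed sham 2). Cd274, which encodes the inhibitory ligand PD-L1, fell by 1.12 on the log2 scale (adjusted p = 0.0125, and 0.0923 without floxed sham 1 and 0.0753 without floxed TAC 2). Cd40 and Icosl did not pass. In cKO hearts 0 of 5 passed with TAC by limma, beside 2.53% of all genes, and 0 by edgeR. An unadjusted p under 0.05 was seen for 2.

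Endothelial cells of the mouse heart can also carry class II. By limma 27.9% of all genes were higher and 14.5% lower with TAC in floxed hearts. Of 5 endothelial markers 0 passed there by limma, 0 by edgeR and 0 at an unadjusted p under 0.05. In cKO hearts 0 passed by limma, beside 2.53% of all genes, and 0 by edgeR, with 3 under an unadjusted p of 0.05. Their summed level was 1049 to 1057 CPM in floxed sham, 954 to 1028 CPM in floxed TAC, 1194 to 1299 CPM in cKO sham and 749 to 1271 CPM in cKO TAC libraries.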
